A study of Homo sapiens with 17 samples.

Results

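In A549 cells, an established human lung carcinoma line, 1810 regions bound by FOSL2 carried a FOXA1 peak in both libraries of unmodified cells and in none of the 4 FOXA1 libraries of a derived line that carries A-Fos. The regions were found by merging, at an overlap of at least 1 bp, the FOSL2 peaks of the derived line without doxycycline on chromosomes 1 to 22 and X, and keeping the 10190 merged regions called in both libraries. The members are 17.8% of these regions (95% exact Clopper-Pearson interval 17.0 to 18.5%). FOXA1 had a peak in both parental libraries at 4639 FOSL2 regions, and the members are 39.0% of those (37.6 to 40.4%). All intervals cover counting error over regions only.

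The study asked how the pioneer factor FOXA1 and AP-1 share binding sites, and measured binding by chromatin immunoprecipitation with sequencing (ChIP-seq). Unmodified (WT, here parental) A549 cells, given no treatment, yielded 2 libraries each of FOXA1, H3K9me3 and H3K27me3. The derived line holds A-Fos, integrated by piggyBac transposition. Its untreated cells and its cells treated with doxycycline (1 µg/mL, fixed after 48 h) each yielded 2 FOXA1 and 2 FOSL2 libraries. A-Fos is a dominant-negative Fos that pairs with Jun proteins and keeps the pair off DNA. The sources used here do not name the promoter that drives A-Fos or say whether the line is a clone. No doxycycline-treated cells without the A-Fos construct were analysed here, so induction and the drug cannot be told apart. FOSL2 was profiled in the derived line and not in parental cells, so every statement on parental FOXA1 at a FOSL2 region joins measurements from different cells. Peak lists measure no expression, so lung identity was not checked.

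AP-1 is a family of dimers of Fos, Jun, ATF and Maf proteins that bind a short palindromic DNA motif. FOSL2 (Fra-2) is a Fos member with no strong activation domain of its own, and it pairs with Jun proteins at enhancers of genes for growth, adhesion and migration. FOXA1 is a forkhead protein of lung, liver and other foregut epithelia that can bind its motif on nucleosomal DNA, and AP-1 motifs are common at the enhancers it occupies.

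The promoters of 7 genes give examples of sequence at members, since only promoter windows could be read from RefSeq. Of the members, 60 (3.31%), against 2.82% of all FOSL2 regions, overlapped 67 windows (GRCh38.p14, 250 bases before to 50 from each start site). The 4 windows shown first belong to those of the 6 members with the highest FOSL2 rank at a promoter whose FOSL2 summit lay in the window. The members at RAI14 and SLFN12 ranked among those 6 with a summit outside the window. FOSL2 is shown because its own promoter held a member. RTN4 and RUNX1-AS1 were chosen after their values were seen, the first for its 3 AP-1 motifs and the second for a forkhead motif. Each line gives 200 bases, 180 before the start site and 20 from it, along the gene's strand, and capitals mark AP-1 motifs (TGANTCA) and, in RUNX1-AS1 alone, the forkhead motif GCAAACA.
KCNMA1, chr10:77350742-77350941, minus strand: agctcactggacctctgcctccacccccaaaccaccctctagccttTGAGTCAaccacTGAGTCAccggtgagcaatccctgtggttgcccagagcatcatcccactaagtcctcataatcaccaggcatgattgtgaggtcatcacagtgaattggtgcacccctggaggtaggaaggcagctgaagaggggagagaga
LOC124903079, chr12:114933563-114933762, minus strand: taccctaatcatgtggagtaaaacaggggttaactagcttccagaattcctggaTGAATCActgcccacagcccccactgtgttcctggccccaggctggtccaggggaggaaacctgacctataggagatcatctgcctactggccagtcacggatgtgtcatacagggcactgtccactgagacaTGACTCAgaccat
LOC124900414, chr1:200483487-200483686, minus strand: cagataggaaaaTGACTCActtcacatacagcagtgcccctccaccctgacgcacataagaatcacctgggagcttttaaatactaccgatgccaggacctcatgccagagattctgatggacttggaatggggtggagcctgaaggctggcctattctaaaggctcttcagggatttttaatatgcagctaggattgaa
MSANTD3, chr9:100429434-100429633, plus strand: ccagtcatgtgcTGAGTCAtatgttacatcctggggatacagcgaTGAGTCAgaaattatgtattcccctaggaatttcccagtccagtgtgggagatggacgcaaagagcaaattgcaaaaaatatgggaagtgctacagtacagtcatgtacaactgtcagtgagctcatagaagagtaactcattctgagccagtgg
FOSL2, chr2:28392678-28392877, plus strand: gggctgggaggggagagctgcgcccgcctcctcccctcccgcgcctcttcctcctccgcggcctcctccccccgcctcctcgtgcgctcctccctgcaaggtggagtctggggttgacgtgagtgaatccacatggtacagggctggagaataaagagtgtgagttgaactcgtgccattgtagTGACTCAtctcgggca
RTN4, chr2:55051253-55051452, minus strand: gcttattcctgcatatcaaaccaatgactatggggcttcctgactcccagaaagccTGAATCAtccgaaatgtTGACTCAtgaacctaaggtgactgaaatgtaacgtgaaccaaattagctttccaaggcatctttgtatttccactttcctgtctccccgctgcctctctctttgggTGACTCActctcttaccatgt
RUNX1-AS1, chr21:34836133-34836332, plus strand: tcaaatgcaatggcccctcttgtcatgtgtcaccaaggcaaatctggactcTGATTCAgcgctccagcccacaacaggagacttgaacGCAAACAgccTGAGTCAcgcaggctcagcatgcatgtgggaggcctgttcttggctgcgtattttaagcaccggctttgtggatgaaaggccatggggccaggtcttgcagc

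The promoter of KCNMA1, which encodes a calcium-activated potassium channel, held 2 copies of TGAGTCA, and the summit of FOSL2 replicate 1 fell on the centre of the nearer copy (0 bp away). FOSL2 fold enrichment there was 81.3 in replicate 1 and 18.6 in replicate 2, and parental FOXA1 fold enrichment was 4.53 and 11.0. FOSL2 was thus near the top of both of its lists (percentiles 99.9 and 98.8), while FOXA1 was at the 35.8 and 79.0 percentiles of the parental lists. LOC124903079 and LOC124900414, RefSeq loci that do not code for protein, had FOSL2 fold enrichments of 60.1 and 22.3, and 59.7 and 17.7, in the same order. MSANTD3, which encodes a Myb/SANT domain protein, had the highest parental FOXA1 of the windows shown in both libraries, at 10.2 and 13.1. At the promoter of FOSL2 itself, TGACTCA began 4 bp after the start site, and the FOSL2 summits lay 12 and 8 bp after it. FOSL2 fold enrichment at its own promoter was 9.22 and 3.93, and parental FOXA1 fold enrichment was 4.54 and 6.38, with FOXA1 summits 58 and 92 bp before the start site. The FOSL2 promoter was thus a weak member by rank, at the 66.1 and 37.9 percentiles of the FOSL2 lists. At RTN4, which encodes a reticulon that shapes the endoplasmic reticulum, FOSL2 fold enrichment was 43.5 and 12.9 and parental FOXA1 fold enrichment was 4.81 and 7.75. At RUNX1-AS1, an antisense RNA of the RUNX1 locus, the parental FOXA1 summit of replicate 1 fell within a forkhead motif. The FOXA1 summit of replicate 2 lay 21 bp from the centre of that motif. An AP-1 motif there was centred 3 bp from the summit of FOSL2 replicate 1.

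**Figure D1:**
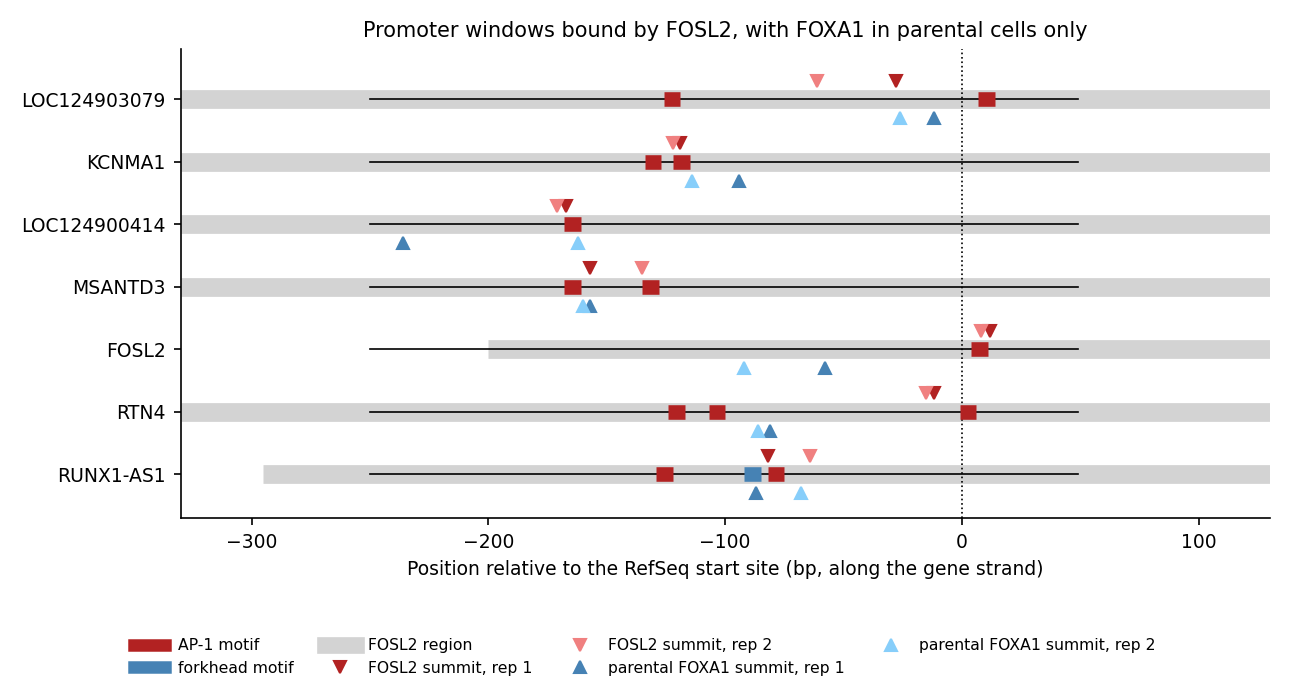
Promoter windows of members drawn along the gene strand, with position relative to the RefSeq start site in bp on the horizontal axis. Grey bars are the FOSL2 regions (cut at the plot's edges), the thin line is the window searched, red and blue blocks are AP-1 and forkhead motifs, and triangles are the FOSL2 (above) and parental FOXA1 (below) summits of each library. AP-1 blocks sit in all of these windows and a forkhead block sits in RUNX1-AS1 alone.

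AP-1 motifs were frequent in the members' promoter windows and forkhead motifs were not. TGANTCA, searched on both strands, occurred in 48 of 67 windows (71.6%, 59.3 to 82.0%), against 7.72% of all 34943 windows of the table. Some windows overlap, as at RTN4, so a motif in their shared part is counted in each. The windows are thus not independent, and the intervals treat them as if they were. Of the 70 AP-1 motifs counted this way, 60 read TGACTCA or, on the other strand, TGAGTCA. In the 41 windows that held the summit of FOSL2 replicate 1, 39 had an AP-1 motif, in 31 of them centred within 25 bp of the summit, and the median distance was 5 bp. Forkhead motifs, none of which can overlap the AP-1 motif, occurred in 8 of 67 windows (11.9%, 5.30 to 22.2%), against 9.58% of all windows. The form TGTTTAC occurred in 0 of 67 (upper bound of the exact interval 5.36%), against 3.42% of all windows, the form TATTTAC in 3, against 2.68%, and the form TGTTTGC in 5, against 3.89%. An AP-1 and a forkhead motif stood together in 5 of 67, against 0.942% of all windows and 11.6% of the 310 windows at any FOSL2 region. At any FOSL2 region the AP-1 motif was in 69.0% of windows and a forkhead motif in 18.1%, both inside the members' intervals. The CRE-like motif TGACGTCA occurred in 2 of 67, against 1.84% of all windows.

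FOSL2 regions with FOXA1 in both lines had a forkhead motif in a larger share of their windows than the members, with intervals that did not overlap. These 1673 regions had a FOXA1 peak in both parental and both untreated A-Fos libraries. They overlapped 64 windows, of which 26 (40.6%, 28.5 to 53.6%) had a forkhead motif and 14 had TGTTTAC. AP-1 motifs occurred in 42 of the 64 (65.6%, 52.7 to 77.1%), an interval that overlaps the members'. In 52 windows at the 2752 FOSL2 regions with no FOXA1 peak in any of the 6 FOXA1 lists, 5 had a forkhead motif (9.62%, 3.20 to 21.0%), a share close to the members'. Other regions had parental FOXA1 and a peak in some A-Fos lists, but not in both untreated ones. Of their 36 windows, 6 had a forkhead motif (16.7%, 6.37 to 32.8%). That interval overlaps both the members' and that with FOXA1 in both lines. Median GC content of the windows was 49.3% at members and 45.3% with FOXA1 in both lines, and its part in the motif counts was not tested. The windows are a small subset of the members, 60 of 1810, and say nothing of members far from a start site.

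FOSL2 enrichment of the members was like that of FOSL2 regions at large. The members were chosen by peak calls in the untreated FOSL2 lists and the 6 FOXA1 lists, so the FOSL2 and FOXA1 values from those lists are a description and carry no test. Median FOSL2 fold enrichment at members was 20.9 in replicate 1 and 5.85 in replicate 2, against 19.4 and 5.60 over all 10190 regions. Fold enrichments are the authors' peak caller's values and are compared within a list only, so ranks are given as percentiles of the list. The median percentiles of the members were 89.1 and 67.8, against 87.7 and 65.3 for all regions, 90.2 and 72.7 with FOXA1 in both lines, and 83.4 and 58.4 with no FOXA1 peak. In replicate 2 the members ranged widely, from the 0.0270 to the 99.9 percentile, with a lower quartile at 48.8. The rule on FOSL2 regions required a peak in both lists, and replicate 1 percentiles were high over all regions too.

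Parental FOXA1 was weaker at the members than at FOSL2 regions with FOXA1 in both parental libraries and in A-Fos lists. Median fold enrichment at members was 5.07 in parental replicate 1 and 8.89 in replicate 2, at the 47.3 and 73.6 percentiles of those lists. With FOXA1 in both lines the medians were 21.3 and 49.5, at the 93.3 and 96.6 percentiles. At the 1156 regions with parental FOXA1 and a peak in some A-Fos lists, but not in both untreated ones, they were 7.97 and 17.1. The 3 sets formed an order in both parental libraries, with the members lowest. A further 2680 FOSL2 regions had FOXA1 in parental replicate 2 but not in replicate 1. Their replicate 2 median was below that of the members, at 4.96 (46.9 percentile).

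**Figure D2:**
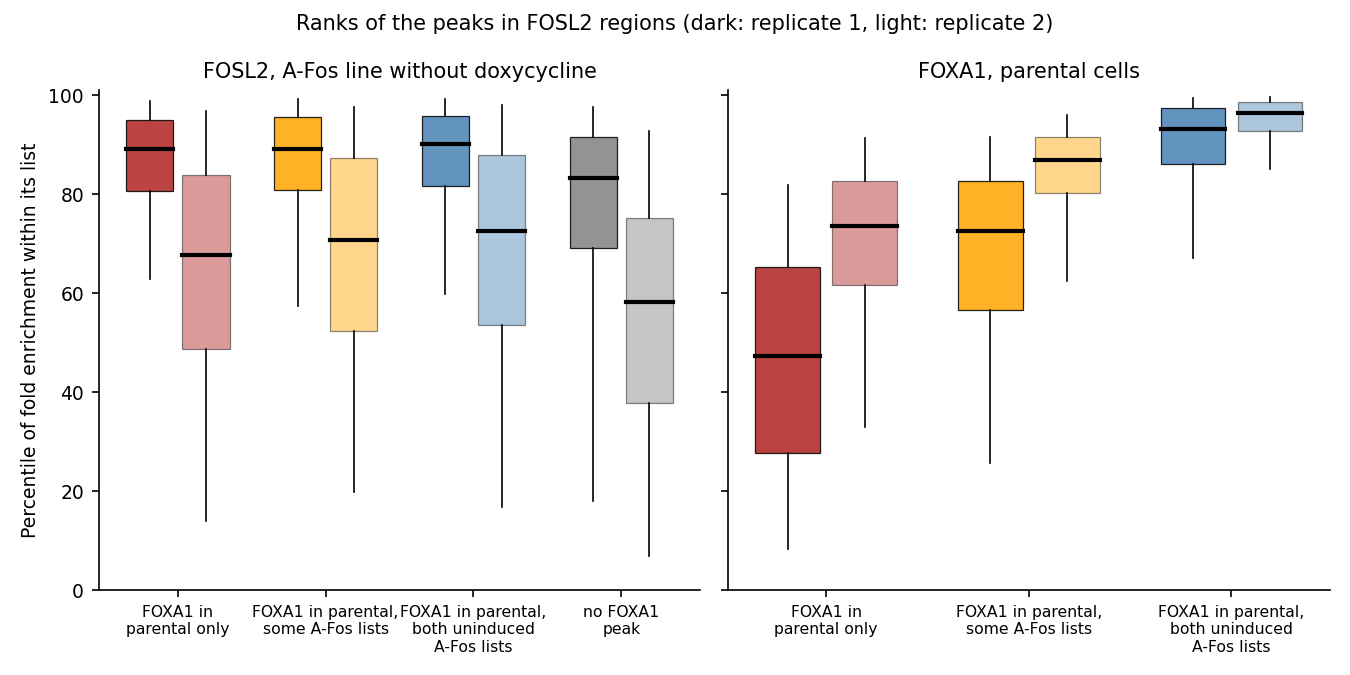
Percentile of the authors' fold enrichment within its own list (vertical axis) for FOSL2 without doxycycline (left) and parental FOXA1 (right), by class of FOSL2 region on the horizontal axis. Boxes span the quartiles, thick lines are medians, whiskers reach the 5th and 95th percentiles, and dark and light boxes are replicates 1 and 2. FOSL2 medians of the members (89.1 and 67.8) lie near those of the other classes, while their FOXA1 medians (47.3 and 73.6) lie below.

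The absence of FOXA1 calls in the A-Fos line followed the rank of parental FOXA1. The 4639 FOSL2 regions with parental FOXA1 were cut into 10 groups by mean parental percentile. Members made up 90.9% of the lowest group (87.9 to 93.4%), 43.3% of the fifth (38.8 to 48.0%), 13.8% of the seventh and 0.431% of the ninth. In the highest group 0 of 464 regions were members (upper bound 0.792%), and 65.3% had FOXA1 in all 4 A-Fos lists. By FOSL2 rank the member share moved less, from 40.4% in the lowest group to 29.7% in the highest.

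**Figure D3:**
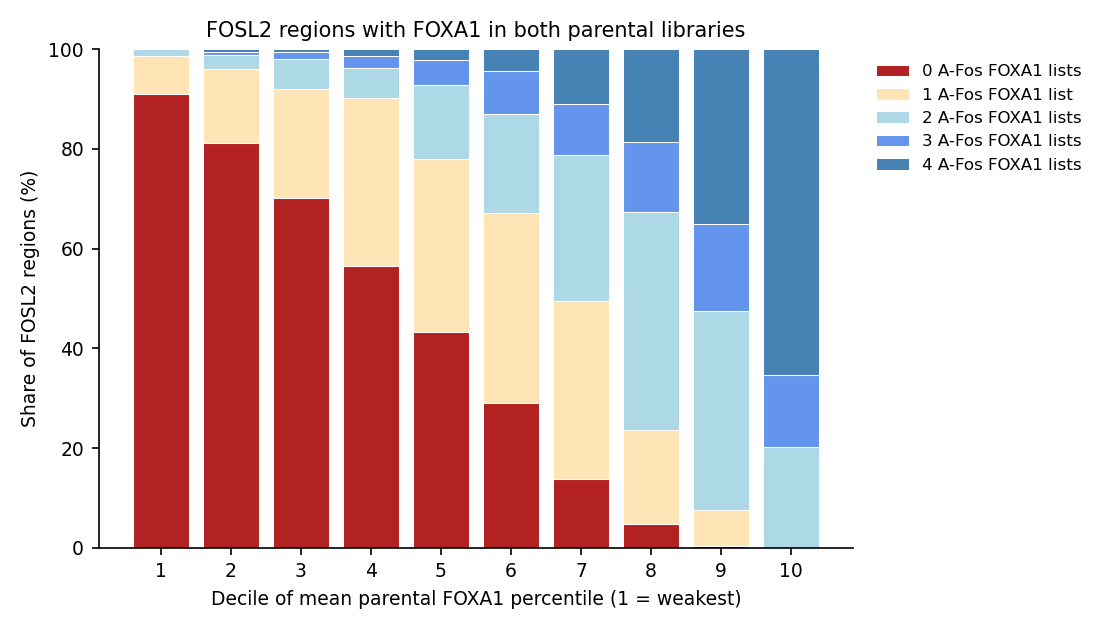
Stacked shares (percent, vertical axis) of the FOSL2 regions with FOXA1 in both parental libraries, by number of A-Fos FOXA1 lists with a peak, in 10 groups of mean parental FOXA1 percentile from weakest to strongest (horizontal axis). The red share, the members, falls from 90.9% to 0 and the topmost share, all 4 lists, rises to 65.3%.

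The A-Fos FOXA1 lists were also shorter than the parental ones, so the name of these regions holds as a rule on calls and not as a measured loss of binding. On chromosomes 1 to 22 and X the parental lists held 49448 and 80318 peaks, the untreated A-Fos FOXA1 lists 7633 and 13247, and the doxycycline ones 11112 and 15065. When the parental lists were cut, by fold enrichment, to the length of each A-Fos list, between 36 (1.99%) and 256 (14.1%) of the 1810 members still had a peak in both. With all 6 FOXA1 lists cut to 7633 peaks and the FOSL2 lists to equal length, the rule gave 81 members. Read depth cannot be taken from peak lists, and the parts that depth and antibody yield play in list length were not tested.

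Peak strength, which decides the calls, is given here as a description for the members and for the regions that missed the rule by 1 list. Over all 1810 members the median −log10 q of the parental FOXA1 peak was 7.07 in replicate 1 and 26.5 in replicate 2. At the 988 regions with a FOXA1 peak in exactly 1 A-Fos list it was 17.3 and 70.5. In 865 of these that list was untreated replicate 2, in 63 untreated replicate 1, and in 43 and 17 doxycycline replicates 1 and 2. The longest A-Fos FOXA1 list was doxycycline replicate 2 (15065 peaks). Over the 4639 FOSL2 regions with FOXA1 in both parental libraries, untreated replicates 1 and 2 had a FOXA1 peak at 37.6% and 57.9%. Doxycycline replicates 1 and 2 had one at 21.0% and 19.3%, and the part of list length was not tested. On the other side, 2558 regions had FOXA1 in parental replicate 2 alone and in no A-Fos list, with a median −log10 q of 8.38. The number of members rests most on 2 libraries: it was 4994 without FOSL2 replicate 2 and 4368 without parental FOXA1 replicate 1. Leaving out each of the other 6 libraries kept it within 1.5 times of 1810. The largest of those counts, 2675 without untreated A-Fos FOXA1 replicate 2, was close to that limit.

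Some members lay close to FOXA1 binding of the A-Fos line. An A-Fos FOXA1 peak in any of the 4 lists lay within 1 kb of 128 members (7.07%, 5.93 to 8.35%) and within 10 kb of 639 (35.3%, 33.1 to 37.6%). For FOSL2 regions with no FOXA1 peak the shares were 3.78% and 27.03%. At 48 members (2.65%) the parental FOXA1 peak was wide enough to overlap an A-Fos FOXA1 peak outside the FOSL2 region, and 1762 members had no such overlap. The parental FOXA1 summit itself lay inside the FOSL2 region at 91.7% of members in replicate 1 and 91.2% in replicate 2.

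FOSL2 and parental FOXA1 summits lay close together at the members. The median distance was 77 and 68 bp from FOSL2 replicate 1 to FOXA1 replicates 1 and 2, and 83 and 73 bp from FOSL2 replicate 2. With FOXA1 in both lines the 4 medians were 68, 64, 79 and 75 bp. Summits lay within 50 bp of each other at 33.7 to 39.5% of members over the 4 pairs, and at 36.0 to 42.5% of regions with FOXA1 in both lines. The rule requires overlap, which bounds these distances, so they describe the sites. The repeat of a summit between replicates was 12 bp (median) for FOSL2 and 22 bp for parental FOXA1 at members, against 14 and 5 bp with FOXA1 in both lines. FOXA1 summits of the members were thus placed less repeatably, at lower enrichment, while FOSL2 summits were not.

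**Figure D4:**
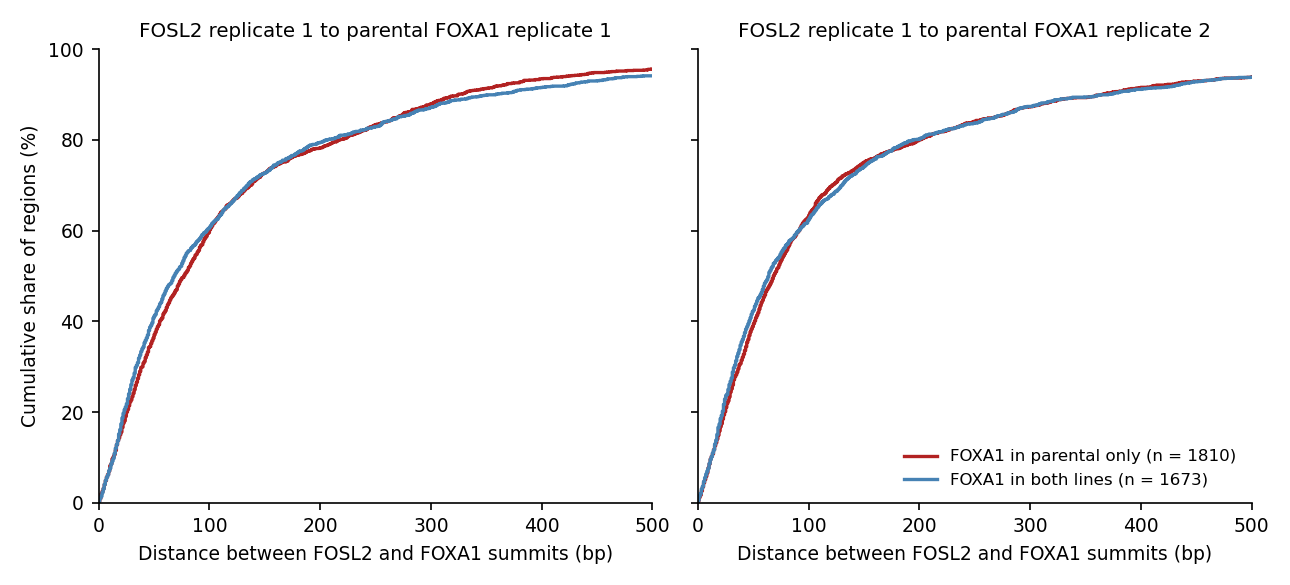
Cumulative share of regions (percent, vertical axis) by distance between the summit of FOSL2 replicate 1 and of parental FOXA1 replicate 1 (left) or 2 (right) in bp (horizontal axis). The curves of the 1810 members and of the 1673 regions with FOXA1 in both lines nearly coincide, with medians of 77 and 68 bp (left) and 68 and 64 bp (right).

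Among the members, FOSL2 and parental FOXA1 strength were nearly unrelated. Across the 1810 members, Spearman correlations between a FOSL2 and a parental FOXA1 percentile ran from -0.07 to -0.04 over the 4 library pairs. Between the FOSL2 libraries the correlation was 0.80 and between the parental FOXA1 libraries 0.64, against 0.92 for FOXA1 at regions with it in both lines. These correlations are across regions of the same libraries and describe them. Split into 4 groups by parental FOXA1 rank, the members with the weakest FOXA1 had median FOSL2 percentiles of 89.7 and 69.5, and those with the strongest 86.9 and 62.7.

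The 8 members with the strongest FOSL2 binding had parental FOXA1 percentiles of 15.5 to 78.5 in replicate 1 and 65.2 to 88.2 in replicate 2. Inside KCNH1, a voltage-gated potassium channel gene (chr1:211036839-211037686), FOSL2 fold enrichment was 107.8 and 33.4 in replicates 1 and 2 and parental FOXA1 fold enrichment was 4.27 and 9.29. Inside HSD17B12, an enzyme of fatty acid elongation (chr11:43830778-43831545), the FOSL2 values were 124.1 and 29.8 and the FOXA1 values 5.07 and 10.3. Inside BMPER, a secreted regulator of BMP signalling (chr7:33986572-33987807), they were 88.0 and 33.2 for FOSL2 and 4.81 and 8.21 for FOXA1. The top value of all members was that at HSD17B12 in FOSL2 replicate 1 and that at KCNH1 in replicate 2. The others of the 8 highest lay inside NGEF, a guanine nucleotide exchange factor of neurons, and MAPRE2, a microtubule end-binding protein, and near PMAIP1 (the BH3-only protein NOXA), TMTC2 and EFR3A. MAPRE2 had the highest FOXA1 rank of these 8, at the 78.5 and 88.2 percentiles.

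The members with the strongest parental FOXA1 include some whose FOXA1 summit lay outside the FOSL2 region. Inside IGF1R, a growth factor receptor gene (chr15:98800153-98801089), parental FOXA1 fold enrichment was 31.5 and 83.0, with the summits 944 bp from that of FOSL2, and the parental peak overlapped an A-Fos FOXA1 peak. At the member 51.9 kb from TLN2, which encodes a talin, the parental peak also overlapped one. The FOXA1 values of that member were 16.8 and 108.1, with summits 2 and 1823 bp from that of FOSL2 replicate 1. The higher value thus belongs to a summit outside the FOSL2 region. Near KRT7, a keratin of simple epithelia, the FOXA1 values were 18.2 and 33.8 and the FOSL2 values 18.1 and 5.95. FIBCD1, ZMIZ1, SV2C and TWIST2 were also among the 8 highest. Of the 26 members over the 90th mean parental percentile, 4 had such an overlap outside the region.

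The weakest members lay near the floor of a list. By mean percentile over both libraries, parental FOXA1 was lowest at members near or in FEM1C, SFSWAP, LCMT1 and RGL1. Fold enrichments there were 2.66 to 3.26 in replicate 1 and 2.74 to 3.38 in replicate 2. By the same measure FOSL2 was lowest at members near or in IDO2, EVX1, THSD4 and AOPEP, with 3.27 to 3.39 in replicate 1 and 2.47 to 3.40 in replicate 2. In replicate 2 alone, FOSL2 fold enrichment at members went as low as 1.82. At EVX1, a homeobox gene 116.6 kb from its member, parental FOXA1 was at the 77.5 and 79.3 percentiles all the same.

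FOSL2 peaks were nearly absent from the members after induction of A-Fos, as they were from FOSL2 regions at large. With doxycycline a FOSL2 peak was called at 6 members (0.331%, 0.122 to 0.720%) in replicate 1, against 0.569% of all FOSL2 regions, and at 11 (0.608%, 0.304 to 1.08%) in replicate 2, against 1.09%. In either library 17 members (0.939%, 0.548 to 1.50%) had a peak, against 1.57%, and 0 had one in both (upper bound 0.204%), against 0.0883%. The doxycycline FOSL2 lists held 1854 and 5274 peaks, against 45586 and 14842 without the drug. With FOXA1 in both lines 34 regions (2.03%, 1.41 to 2.83%) had a peak in either library. With 2 libraries against 2, no exact permutation test of libraries can reach a p of 0.05, so none is given. The member share was 0.461% without FOSL2 replicate 2, 0.509% with 200 bp around each summit and 0.156% with peaks of −log10 q of at least 5.

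The 17 members with a doxycycline FOSL2 peak ranged widely in FOSL2 without it, from a mean percentile of 14.9 at THSD4 to 99.6 at KCNJ2. Inside LCOR, a nuclear receptor corepressor gene, FOSL2 fold enrichment was 62.3 and 9.41 without doxycycline and 4.81 in doxycycline replicate 1, with no peak in replicate 2. At KCNK1, a potassium channel gene 34.6 kb away, the values were 51.8 and 10.7 without and 4.17 in doxycycline replicate 1. Inside RPRD1B they were 46.2 and 9.22 without and 3.95 in doxycycline replicate 1. At SNAP25, a synaptic fusion protein gene, the member 1.89 kb away had 36.3 and 10.2 without and 4.34 in doxycycline replicate 2. Every one of these had a peak in 1 of the 2 doxycycline libraries only. By fold enrichment rank within the doxycycline lists these 4, with NTRK3, WNK1, GABBR2 and PARP15, were the 8 highest.

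Repressive histone marks were rare at the members. H3K9me3, the mark of heterochromatin and silenced repeats, had a peak at 31 members (1.71%, 1.17 to 2.42%) in replicate 1, against 3.37% of all FOSL2 regions, and at 47 (2.60%, 1.91 to 3.44%) in replicate 2, against 4.17%. Both libraries had one at 21 members (1.16%, 0.720 to 1.77%), against 2.34%. H3K27me3, the Polycomb mark, had a peak at 15 members (0.829%, 0.465 to 1.36%) in replicate 1, against 2.34%, and at 18 (0.994%, 0.590 to 1.57%) in replicate 2, against 3.33%. Both libraries had one at 13 members (0.718%, 0.383 to 1.23%), against 2% of all regions. No member had both marks in all 4 libraries (upper bound 0.204%), against 0.216%.

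Both marks were called at a larger share of the regions without any FOXA1 peak. H3K9me3 was called in both libraries at 122 of 2752 of them (4.43%, 3.69 to 5.27%) and H3K27me3 at 143 (5.20%, 4.40 to 6.09%), intervals that lie above the members'. With FOXA1 in both lines the counts were 21 of 1673 for H3K9me3 (1.26%, 0.779 to 1.91%) and 3 for H3K27me3 (0.179%, 0.0370 to 0.523%), and both intervals overlap the members'. The marks were measured in parental cells, as was the FOXA1 that chose the members, and FOSL2 was not. The member share with H3K27me3 in both libraries was 1.42% without FOSL2 replicate 2 and 0.291% with 200 bp around each summit.

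**Figure D5:**
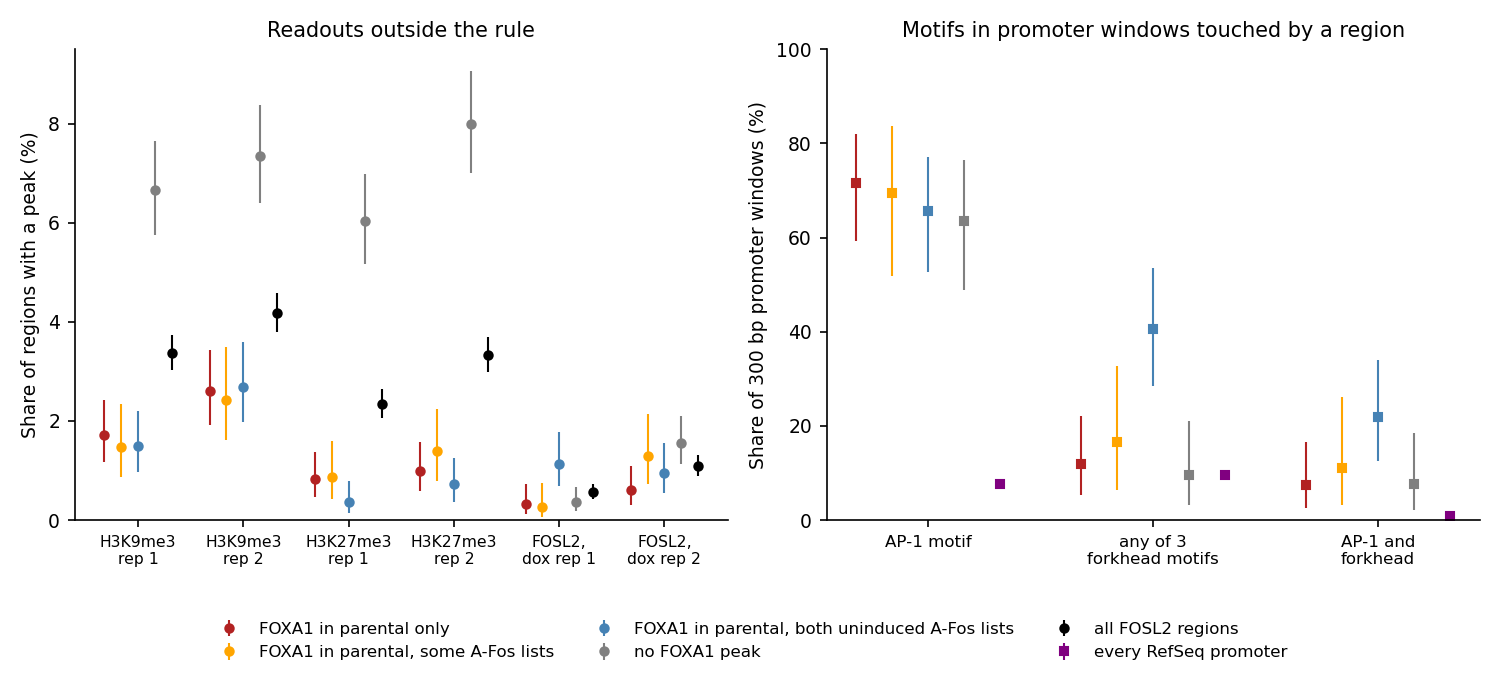
Left, share of regions (percent, vertical axis) with an H3K9me3, H3K27me3 or doxycycline FOSL2 peak in each library (horizontal axis), by class of FOSL2 region. Right, share of 300 bp promoter windows touched by a region that hold an AP-1 motif, any of 3 forkhead motifs, or both, with all RefSeq windows beside them. Points are shares and bars are 95% exact intervals over regions or windows. Both marks are more frequent at regions with no FOXA1 peak (grey) than at members (red), and the forkhead share of members (11.9%) lies below that with FOXA1 in both lines (40.6%).

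Named members with a mark show that it could coincide with strong FOSL2 binding. Inside the RNF103-CHMP3 read-through gene (chr2:86694909-86695606) FOSL2 fold enrichment was 78.6 and 18.9 and parental FOXA1 fold enrichment 4.81 and 6.80, with H3K9me3 in both libraries. The member 101.5 kb from SHB, an adaptor protein gene (chr9:38170767-38171762), had 89.6 and 15.9 for FOSL2, 8.07 and 10.5 for FOXA1, and H3K9me3 in both. Inside RORA, which encodes an orphan nuclear receptor (chr15:61049833-61050739), FOSL2 was 32.6 and 8.16 and FOXA1 5.07 and 8.26, with H3K27me3 in both. Inside CACNA1C, a calcium channel gene, and DOCK8, an exchange factor gene of immune cells, H3K27me3 also covered a member in both libraries. These members ranked by FOSL2 from the 63.9 to the 99.9 percentile of a list.

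The members lay mostly far from start sites, as other FOSL2 regions did, though less often than regions with FOXA1 also in A-Fos lists. Inside a protein-coding gene interval lay 884 members (48.8%, 46.5 to 51.2%), against 48.9% of all FOSL2 regions, and 423 (23.4%) lay over 50 kb from one, against 24.3%. Within 1 kb of a gene end lay 64 (3.54%, 2.73 to 4.49%), against 3.6%, and within 1 kb of a protein-coding start 42 (2.32%, 1.68 to 3.12%), against 2.36%. Over 10 kb from a protein-coding start lay 1520 (84.0%, 82.2 to 85.6%), against 86.6%, and with FOXA1 in both lines 1516 (90.6%, 89.1 to 92.0%). With parental FOXA1 and a peak in some A-Fos lists the share was 89.9% (88.0 to 91.6%). These 2 intervals lie above the members'. With no FOXA1 peak it was 85.9% (84.6 to 87.2%), an interval that overlaps the members'. Over 100 kb from a start lay 654 members (36.1%, 33.9 to 38.4%), against 38.4%. The median distance to a start was 57.1 kb at members, 63.1 kb over all regions and 72.0 kb with FOXA1 in both lines. Median width was 578 bp at members and 548 bp over all regions. Exons, introns and UTRs were not distinguished, since gene intervals and start sites alone were used.

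Some members at gene ends were among the stronger FOSL2 sites. The member 0.126 kb from SMIM21 (chr18:75408544-75409349) had FOSL2 fold enrichments of 54.9 and 19.2 and parental FOXA1 fold enrichments of 4.01 and 9.80. It was also 1 of the members with a FOSL2 peak in doxycycline replicate 2. At SLFN12, a Schlafen gene, the member 0.150 kb away had FOSL2 values of 45.8 and 14.9 and FOXA1 values of 10.7 and 17.6. DENND5A, TAC3, SLC2A14, TRPC1, ARL14 and COTL1 complete the 8 with the highest FOSL2 rank.

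Members were spread over all 23 chromosomes analysed. Their share of FOSL2 regions ran from 11.6% on chromosome X (7.67 to 16.7%) to 23.6% on chromosome 17 (19.7 to 28.0%). The next member lay within 10 kb of 118 members (6.52%). Chains of 3 members, each within 10 kb of the next, lay at FHAD1 (chr1:15341965-15357243) and NEBL (chr10:21329962-21337428), the latter a nebulin-like actin-binding protein gene.

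Members lay within 50 kb of 2208 of 19970 protein-coding genes (11.1%), and of 28.4% of the 7762 genes with any FOSL2 region that near. At least 2 members lay near 323 genes. Most lay at PRKCA, a protein kinase C gene on chromosome 17, with 7 of its 12 FOSL2 regions, and NAV2, a neuron navigator gene on chromosome 11, with 6 of 13. At PRKCA the members spanned 401.5 kb, with FOSL2 fold enrichment from 13.0 to 61.3 in replicate 1 and parental FOXA1 fold enrichment from 3.20 to 7.22 in replicate 1. NEBL, RPTOR (a subunit of the kinase complex mTORC1), SMAD3, ATXN1, FHAD1 and RAB31 had 4 each. These genes are long, from 129.6 kb at SMAD3 to 776.4 kb at NAV2, against a median of 24.2 kb for all protein-coding genes, and the part of length was not tested. The count of genes was 5000 without FOSL2 replicate 2 and 4473 without parental FOXA1 replicate 1, and 1091 and 3480 with windows of 10 and 100 kb.

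Of the 12 gene lists examined, targets shared by YAP and AP-1 had members nearby most often. YAP and TAZ are coactivators restrained by Hippo signalling that act through TEAD proteins, often at enhancers with AP-1 motifs. A member lay within 50 kb of 12 of the 20 listed genes, against 11.1% of all genes, and of 12 of the 16 with any FOSL2 region nearby, against 28.4%. FOSL2 regions with FOXA1 in both lines also lay within 50 kb of 10 of the 20, against 1624 of all 19970 genes. Nearness to this list was thus not particular to the members. The median length of the listed genes was 84.9 kb, against 24.2 kb for all protein-coding genes, and its part was not tested. Inside TEAD1, the DNA-binding partner itself, a member (chr11:12723907-12724796) had FOSL2 fold enrichments of 41.2 and 12.9 and parental FOXA1 fold enrichments of 7.21 and 11.4. At ANKRD1, a classic YAP target, the member 38.9 kb away had FOSL2 values of 45.7 and 8.84 and FOXA1 values of 6.41 and 5.47. At FJX1 the FOSL2 values were 60.7 and 10.4 and the FOXA1 values 4.01 and 6.38. The others near or in these genes were at MYOF, CRIM1, PTPN14, AMOTL2, AXL, WWTR1 (TAZ), WWC1, LATS2 and NT5E, so that regulators of the pathway (LATS2, AMOTL2, WWC1, PTPN14) stand beside targets.

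In the cytoskeleton and migration list a member lay near 9 of 25 genes (36.0%, against 11.1% of all genes) and near 50.0% of the 18 with a FOSL2 region, against 28.4%. Inside LIMA1, an actin-bundling protein gene, FOSL2 fold enrichment was 37.7 and 18.3 and parental FOXA1 fold enrichment 5.34 and 6.09. Inside ACTN4, an alpha-actinin gene, FOSL2 was 33.9 and 10.6 and FOXA1 11.1 and 21.9. MYO1E, a class I myosin gene, had 3 members among 12 FOSL2 regions. Of 20 laminin, integrin and hemidesmosome genes 7 (35.0%) had a member nearby, or 38.9% of the 18 with a FOSL2 region. Among them were ITGA2 and ITGA5, integrin subunits for collagen and fibronectin, with 2 members each, and the neighbours KRT8 and KRT18 with 3 members between them.

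The lists of signalling genes ranged from 15.0 to 37.5% of genes with a member, against 11.1% of all genes, and from 20 to 42.9% of genes with a FOSL2 region, against 28.4%. In the glucocorticoid response list 6 of 16 genes (37.5%) had a member, or 42.9% of the 14 with a FOSL2 region, among them DUSP1, SGK1, PER1, FKBP5 and the receptor gene NR3C1. The member 6.09 kb from DUSP1, a phosphatase that ends MAP kinase signals, had FOSL2 fold enrichments of 23.6 and 8.25 and parental FOXA1 fold enrichments of 11.2 and 24.4. In the TGF-beta and epithelial-mesenchymal transition list 5 of 25 did (20%), or 35.7% of the 14 with a FOSL2 region. Inside TGFBR2, the type II receptor gene, FOSL2 was 40.9 and 15.2 while FOXA1 was 3.12 and 3.30, near the floor of both parental lists. SMAD3, the signal transducer, had 4 members among 12 FOSL2 regions, the strongest with 52.8 and 13.2 for FOSL2. Of 20 EGFR and MAPK feedback genes 3 had a member (15.0%), or 20% of the 15 with a FOSL2 region, a share below the 28.4% of all such genes. The strongest lay inside EGFR (chr7:55064984-55066167), with FOSL2 fold enrichments of 55.2 and 18.8 and FOXA1 fold enrichments of 5.61 and 10.7. EGFR had 6 FOSL2 regions in all, 3 of them with FOXA1 in both lines. Of 20 NRF2 targets, genes of the oxidative stress response, 3 had a member (15.0%), TXNRD1, ABCC3 and GCLC, or 23.1% of the 13 with a FOSL2 region, also below 28.4%.

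In the AP-1 family itself 5 of 17 genes (29.4%, against 11.1% of all genes) had a member within 50 kb, or 45.5% of the 11 with a FOSL2 region, against 28.4%. They were the small Maf genes MAFK, MAFF and MAFG, BATF2, and FOSL2. Each small Maf gene had a member as its only FOSL2 region. At MAFG the member 19.3 kb away had FOSL2 fold enrichments of 12.1 and 4.78 and parental FOXA1 fold enrichments of 13.6 and 19.6, while at MAFK they were 18.4 and 5.10 and 3.20 and 12.5. FOSL2 had a further region nearby with no FOXA1 peak. JUN had 1 FOSL2 region, with no FOXA1 peak, and FOS and FOXA1 had 0 FOSL2 regions within 50 kb.

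The other 4 lists had 2 genes each with a member. Of 26 AP-1-linked genes 2 did (7.69%, against 11.1% of all genes), MMP7, a matrix metalloproteinase, and PLAU, the urokinase gene, or 11.1% of the 18 with a FOSL2 region, against 28.4% of all such genes. Of 27 lung and foregut lineage genes 2 did, KLF5 and ELF3 (7.41%), or 14.3% of the 14 with a FOSL2 region. KLF5, a Krüppel-like factor of epithelia, had its only FOSL2 region 12.9 kb away as a member, with FOSL2 fold enrichments of 47.3 and 12.6 and FOXA1 fold enrichments of 4.27 and 6.61. Of 12 housekeeping genes 2 did (16.7%), among them RPLP0, or 50.0% of the 4 with a FOSL2 region, shares above those of all genes. Of 18 genes of other cell types 2 did, PDGFRB and VWF (11.1%), or 22.2% of the 9 with a FOSL2 region. PLAU shares its named member with VCL, and RPLP0 shares its own with PXN, so these counts are not independent.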

How the data were processed

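FOXA1, FOSL2, H3K9me3 and H3K27me3 ChIP-seq lists of 14 A549 libraries were used, 2 per group, grouped by their titles. The 3 inputs were not analysed here. Each library had its own list, so replicates were not pooled. Per the labels' protocols, fixation was in 1% formaldehyde for 10 min and libraries were read as 50 bp pairs. Peak lists carry no read counts, and their depth is unknown. Per the submitters' processing notes, the build was hg38 and the tools were MACS2, BWA 2.2.1, fastp 0.23.2, DRAGEN, SAMtools 1.8 and deepTools, with settings not given in the sources used.

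The deposited lists give, as the authors' peak caller wrote them, a fold enrichment (a linear ratio), the −log10 of p and q, and a score that was not used. All deposited q values were at most 0.05. Percentiles rank fold enrichment within a list. Where a region held several peaks of a list, the one with the highest fold enrichment was taken.

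Gene intervals (19970 protein-coding genes) and 34943 promoter windows came from RefSeq GRCh38.p14 tables. No genome sequence was used here, so motifs planned for all members were searched in promoter windows alone. Shares have exact Clopper-Pearson intervals (SciPy 1.17.1, Python 3.11.15). Peak overlap, merging, distances and the member rule were checked on simulated lists. No test over regions was made. The members and lists were chosen with earlier results of these data known.

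Named by rule were the 8 members highest in FOSL2 and in parental FOXA1, the 4 lowest in each, up to 8 with a doxycycline FOSL2 peak, with each mark in both libraries and within 1 kb of a gene end or start, the 8 genes with most members, up to 6 genes per list (others were added by name alone), and FOXA1, FOSL2, FOS and JUN. An item named by the rule is not reported here. Alternatives were stricter peaks, lists of equal length, 200 bp around summits, 50% coverage, all contigs, other gene windows, each library left out and each replicate number alone. Titles call the libraries biological replicates, and nothing further says how cultures were separated.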

Additional observations from a re-analysis of the deposited data

How the results depend on the processing

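Of 50 values under alternatives other than leaving out 1 library, 31 moved by less than the spread between libraries or the interval, and for counts by less than 1.5 times. These 50 include the member counts with each replicate number alone. With lists of equal length there were 81 members, with a median parental FOXA1 percentile (averaged over libraries) of 91.5. These are percentiles of the uncut parental lists, so the cut kept only high ones by construction. Of the 81 members, 0% had a doxycycline FOSL2 peak and 0% had H3K27me3 in both libraries. With so few members, 0% cannot be told from the main shares of 0.939% and 0.718%. The summit distance was 88.3 bp, 6.17% lay within 1 kb of a gene end and 124 genes lay within 50 kb. With 200 bp around each summit, 0.509% had a doxycycline FOSL2 peak, 0.291% had H3K27me3 and the summit distance was 55.5 bp. With FOXA1 covering at least 50% of the region there were 530 members, a summit distance of 64.9 bp and 770 genes. Peaks of −log10 q of at least 5 gave 0.156% with a doxycycline FOSL2 peak. Gene windows of 10 and 100 kb gave 1091 and 3480 genes, and a gene end window of 5 kb gave 13.8% of members. The cause of these differences was not tested beyond what each alternative changes by construction.

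Leaving out each of the 8 libraries that set the members gave 1729 to 4994 members, and median percentiles (averaged over libraries) of 67.7 to 79.0 for FOSL2 and 45.9 to 67.2 for parental FOXA1. The share with a doxycycline FOSL2 peak ran from 0.461 to 1.03%, with H3K9me3 from 0.868 to 1.34% and with H3K27me3 from 0.578 to 1.42%. Summit distance ran from 70 to 80.5 bp, the share near gene ends from 3.01 to 4.53% and the number of genes from 2097 to 5000. Of 72 such values 65 stayed within the limits given above. For the FOSL2 and parental FOXA1 percentiles the limit is the spread between the 2 libraries averaged. Leaving out 1 of those libraries can hardly exceed it, so these values show little about stability.

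No label pairs libraries of different antibodies by replicate number, and no paired test was made, since none of these results comes from a test. As a replicate block, the rule applied to lists of replicate 1 alone gave 7539 members and to lists of replicate 2 alone 4675. Peak presence in short lists limits all of these results, since a site under the calling threshold cannot be told from an unbound one.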
